A study of Homo sapiens with 6 samples.

Results

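The NF-kB subunit genes RELA, RELB, REL, NFKB1 and NFKB2 were followed on spotted 2-colour arrays of the human T-cell leukaemia line Jurkat. Members were the probes whose platform gene symbol is one of these 5, which gave 19 of 15246 probes and 5 of 4604 gene symbols. RELA had 2 probes, RELB 3, REL 4, NFKB1 3 and NFKB2 7, and the platform annotation tied all probes of a gene to 1 RefSeq transcript. Of the 19 probes, 14 had a value on all 6 arrays, and all 5 gene means were among the 7267 features tested (3932 named genes and single unnamed probes).

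Each array compared cells transfected with siRNA against p65 or against RPS3 (Cy5) with cells given nonspecific siRNA (Cy3), and all cells had been stimulated through the T-cell receptor with 1 ug of anti-CD3/CD28. There was 1 array per siRNA at 1, 3 and 6 h, so each siRNA had 3 arrays and a single time had no replicate. No unstimulated sample is among the groups, and the labels name no separate cultures. The p-values therefore speak of the spread among the arrays at hand, which may be technical, with the 3 times standing as replicates. The labels also do not say whether 1 control RNA of each time served both siRNAs. All values are log2 ratios, taken as siRNA over control, the likely direction from the dyes. A log2 ratio gives no transcript level, so the subunits cannot be ranked by abundance, and the T-cell identity of the line cannot be checked from its markers. ± is the SD over the 3 arrays of a siRNA unless stated.

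NF-kB is a family of dimeric transcription factors that share the Rel homology domain, which binds DNA and holds the subunits together. RELA (p65), RELB and REL (c-Rel) carry transcription activation domains, while NFKB1 and NFKB2 encode the precursors p105 and p100, which are processed to the DNA-binding subunits p50 and p52. In resting T cells IkB proteins hold the dimers in the cytoplasm. T-cell receptor and CD28 signals lead to IkB degradation and to the entry of dimers such as p50-p65 and p50-c-Rel into the nucleus, and RELB, REL, NFKB1 and NFKB2 are themselves known as NF-kB target genes. RPS3 belongs to the small ribosomal subunit and has been described as a component of p65 complexes in the nucleus.

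The promoters are shown because subunit genes are known NF-kB targets; their sequences were not tested against the array values. RefSeq sequences (GRCh38.p14, 250 bases before to 50 after a transcription start) were at hand for 4 of the 5 members. Promoters were searched on both strands for GGG, any 2 bases, TT, any base and CC, a form of the kappaB site bound by NF-kB. These letters were chosen after the sequences had been seen, and overlapping matches were merged. Of all 35116 promoter windows in the table, 5.68% held this motif, and 58.7% held a looser motif with any 5 bases between GGG and CC. The sequences below run 5′ to 3′, and capitals mark the motif. For RELA, REL and NFKB1 they are the 100 bases before the most upstream start, and for NFKB2 the 30 bases around each match.
RELA, chr11:65663858-65663957, minus strand: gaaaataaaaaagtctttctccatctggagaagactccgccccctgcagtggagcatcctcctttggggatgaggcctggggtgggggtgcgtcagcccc
REL, chr2:60881474-60881573, plus strand: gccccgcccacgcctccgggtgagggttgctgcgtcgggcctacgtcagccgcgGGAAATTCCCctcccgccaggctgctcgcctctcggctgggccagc
NFKB1, chr4:102501259-102501358, plus strand: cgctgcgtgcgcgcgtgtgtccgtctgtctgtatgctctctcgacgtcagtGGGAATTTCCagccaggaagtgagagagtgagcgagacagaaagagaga
NFKB2, chr10:102394461-102394490, plus strand: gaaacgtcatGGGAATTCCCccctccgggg
NFKB2, chr10:102394491-102394520, plus strand: ggccgagaaGGGGCTTTCCCggccctgagc
NFKB2, chr10:102395519-102395548, plus strand: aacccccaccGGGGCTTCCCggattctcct
NFKB2, chr10:102395674-102395703, plus strand: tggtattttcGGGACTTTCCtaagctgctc

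The single REL window held 1 match, 46 bases before the start, and NFKB1 held 1 match 49 bases before the first of its 2 starts and 0 at the other. Of the 3 NFKB2 starts, the second had matches 107 and 78 bases upstream and the third had matches 176 and 21 bases upstream. Both RELA windows held 0 matches to the motif and 1 each to the looser motif. A match describes these letters only and shows no binding.

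RELA encodes p65, the target of the p65 siRNA. Its gene mean read -0.41, -0.46 and -0.59 at 1, 3 and 6 h with p65 siRNA, and -0.39, -0.69 and -0.54 with RPS3 siRNA. It lay below 0 on every array, and the ranges of the siRNAs overlapped. With p65 siRNA it averaged -0.49 ± 0.09, or 1.40-fold lower than control, and with RPS3 siRNA -0.54 ± 0.15, or 1.46-fold lower. The difference, RPS3 siRNA minus p65 siRNA, was -0.05 with a 95% interval from limma of -0.41 to 0.31, so a larger fall with the siRNA against p65 than with the other was not detectable at this number of arrays. Neither mean passed after Benjamini-Hochberg adjustment over all features (limma adjusted p = 0.935 and 0.306). Over all 6 arrays the mean was -0.52 ± 0.12 (SD, n = 6), and 0.523% of features lay lower. Unadjusted, RELA and NFKB1 were lower over all 6 arrays with a p under 0.05 (5.13% of features) and 0 members were higher (5.79%). The RELA mean did not pass in limma (adjusted p = 0.128, 0.00% called). An exact two-sided permutation test that flips the sign of each array gave an unadjusted p of 0.0312, the smallest that 6 arrays allow. Any feature on the same side of 0 on all 6 arrays gets that p. The test therefore only restates that RELA lay below 0 on every array, and the share of such features was not counted.

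The RELA probes did not read alike. Probe 15848_1 read -0.71, -0.99 and -1.05 at 1, 3 and 6 h with p65 siRNA, and -1.28, -0.99 and -0.94 with RPS3 siRNA. On each of the 6 arrays at most 2.34% of probes were lower, and its mean over the arrays was a 1.99-fold fall. Probe 28407_1 read -0.12, 0.06 and -0.13 with p65 siRNA, and 0.50, -0.40 and -0.14 with RPS3 siRNA, which is on both sides of 0. The means of these probes over the 6 arrays were 0.954 apart. Among 1046 genes with 2 probes measured on all arrays, the median distance was 0.0992, and 3 genes (0.287%) had a distance of at least that of RELA, the others being TOPBP1 (0.961) and HMGN1 (0.986). The gene mean of RELA is therefore an average of a probe near -0.99 and a probe near -0.04. Probe sequences were not used here, so the part of the transcript that each probe reads is not given.

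**Figure D1:**
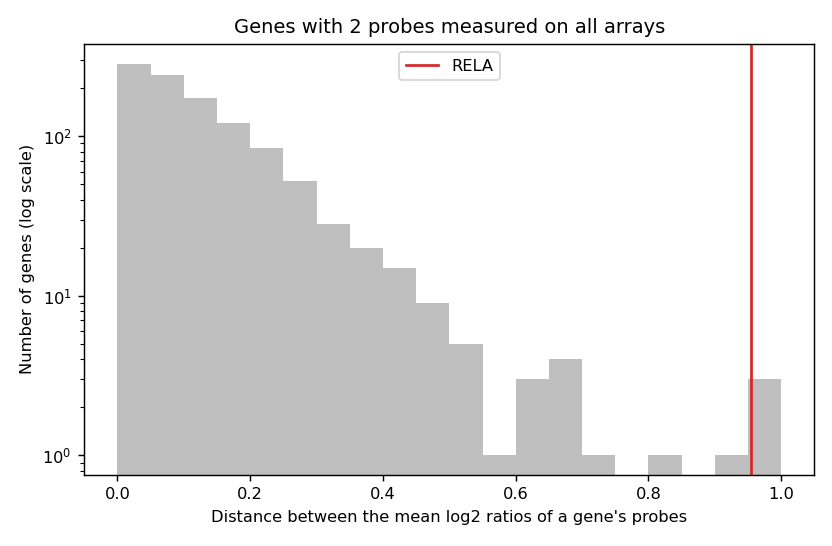
Distance between the mean log2 ratios of the 2 probes of a gene over the 6 arrays, for 1046 genes (x axis, log2 units; y axis, number of genes on a log scale). The red line marks RELA at 0.954, which lies in the far right of the distribution, against a median of 0.0992.

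Tested alone among 10721 probes, RELA probe 15848_1 was the only one of the 14 complete member probes to pass in any comparison. With RPS3 siRNA it fell (-1.07 ± 0.19, limma adjusted p = 0.0439; 7 probes or 0.0653% were called). The mean over all 6 arrays also passed (-0.99, adjusted p = 0.00855; 20 probes or 0.187% called), but the p65 siRNA arrays did not (-0.91 ± 0.18, adjusted p = 0.148; 0.00% called, with 291 probes or 2.71% lower and 254 or 2.37% higher at an unadjusted p under 0.05). The difference between the siRNAs for this probe was -0.16, with an interval of -0.58 to 0.27. The call on the RPS3 siRNA arrays was lost when any 1 of the 6 arrays was left out (adjusted p from 0.0562 to 0.572), while the mean stayed between -1.14 and -0.96. For the mean over all arrays, the call was lost without the p65 siRNA 1 h array (adjusted p = 0.0970), the p65 siRNA 3 h array (0.0704) or the RPS3 siRNA 1 h array (0.0612). The arrays carry database ID numbers that form a block of 2 (p65 siRNA 1 h and RPS3 siRNA 3 h) and a block of 4; the labels do not say what the numbers mark. This ID block as a covariate also ended both calls (adjusted p = 0.232 and 0.0521). The RPS3 siRNA call was further lost with quantile normalization (0.140), scale normalization (0.0507) and blanks allowed (0.105), where that over all arrays was kept (0.0154, 0.00604 and 0.0217). With the time point as a replicate block the RPS3 siRNA call was lost (0.0673) and that over all arrays kept (0.0134).

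At an unadjusted p under 0.05, 4 of the 14 member probes were lower with p65 siRNA (2.71% of probes): 15848_1 of RELA, 26921_1 of RELB, 28585_1 of NFKB1 and 27660_1 of NFKB2. With RPS3 siRNA only 15848_1 was (5.62%), and over all arrays 5 were (6.25%). None was higher with p65 siRNA (2.37%), with RPS3 siRNA (3.90%) or over all arrays (5.46%). Below 0 on all 3 arrays were 6 of the 14 with p65 siRNA (10.2% of probes) and 4 with RPS3 siRNA (16.5%).

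REL, RELB, NFKB1 and NFKB2 were below 0 at 1 and 3 h and higher at 6 h. In the p65 siRNA comparison, all 5 subunit genes were below 0 at both 1 and 3 h, as were 25.7% of tested features, and their 3-array means were all below 0 against 45.3% of features. RELA, RELB and NFKB2 were below 0 on all 3 arrays (9.67% of features were). Unadjusted, RELA and NFKB1 were lower with a p under 0.05 (163 features or 2.24%) and 0 members were higher (197 or 2.71%). After adjustment 0 of the 5 passed (limma, 0.00% of 7267 features called).

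NFKB1 is the p105 and p50 gene. Its gene mean read -0.65, -1.11 and 0.11 at 1, 3 and 6 h with p65 siRNA and -0.37, -0.35 and 0.04 with RPS3 siRNA. The 6 h arrays stood above 0 and the other 4 below. The averages were -0.55 ± 0.62 and -0.23 ± 0.23 (limma adjusted p = 0.935 and 0.797), and the p65 siRNA mean ran from -0.88 to -0.27 when 1 array was left out: it was -0.88 without the 6 h array and -0.27 without the 3 h array. It was -0.34 with the median of the probes and -0.43 without probe 35046_1. Much of that swing was in probe 35046_1, which read -1.21, -1.76 and 0.60 with p65 siRNA and -1.31, -0.60 and 0.52 with RPS3 siRNA. Probe 28585_1 was below 0 on every array, at -0.35, -0.79 and -0.44 with p65 siRNA and -0.18, -0.24 and -0.25 with RPS3 siRNA. Probe 25193_1 read -0.40, -0.76 and 0.18 with p65 siRNA and 0.39, -0.21 and -0.16 with RPS3 siRNA. The 3 NFKB1 probes thus shared a low 3 h value with p65 siRNA and differed in their 6 h values.

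REL, the c-Rel gene, read -0.31, -0.34 and 0.03 at 1, 3 and 6 h with p65 siRNA. With RPS3 siRNA it read -0.42, -0.01 and 0.37. Its averages were -0.21 ± 0.21 and -0.02 ± 0.39 (limma adjusted p = 0.938 and 0.988), and the arrays of the siRNAs overlapped. Probes 17204_1 and 27705_1 both ran from below 0 to above it: they read -0.75 and -0.51 at 1 h and 0.74 and 0.64 at 6 h with RPS3 siRNA. Probe 30700_1 did not follow them there, at -0.07, -0.17 and -0.27, and probe 149009_1 was blank on the RPS3 siRNA 6 h array.

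RELB, a subunit best known as the partner of p52, read -0.46, -0.34 and -0.04 at 1, 3 and 6 h with p65 siRNA. With RPS3 siRNA it read -0.04, -0.07 and 0.25. RELB was the only subunit gene higher with RPS3 siRNA than with p65 siRNA at all 3 times, by 0.42, 0.27 and 0.29, as were 12.9% of features. Its averages were -0.28 ± 0.22 and 0.05 ± 0.18, and the difference of 0.33 had a 95% interval of -0.09 to 0.74 (limma adjusted p = 0.9996, as for all 5 genes). Within the blocks of ID numbers, the difference was 0.39 in the block of 2 arrays and 0.29 in the block of 4, with unlike times compared in each. Tested alone, its probe 26921_1 had a difference of 0.69 with an unadjusted p of 0.029 in limma (0.933% of probes were higher at p under 0.05, 1.74% lower), and an adjusted p of 0.9996. Its probes split: 26921_1 read -0.97, -0.61 and -0.25 with p65 siRNA and -0.13, -0.18 and 0.55 with RPS3 siRNA, and 28926_1 read -0.37, -0.51 and -0.12, then -0.51, -0.15 and 0.20. Probe 16279_1 lay at or above -0.04 on all 6 arrays.

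NFKB2, the p100 and p52 gene, read -0.41, -0.25 and -0.20 at 1, 3 and 6 h with p65 siRNA. With RPS3 siRNA it read -0.43, -0.20 and 0.27. The averages were -0.29 ± 0.11 and -0.12 ± 0.36 (limma adjusted p = 0.935 and 0.857), and only the RPS3 siRNA 6 h array stood above 0. Probes measured differed between arrays, since 4 of its 7 probes had blanks. Of the complete ones, probe 27660_1 read -0.61, -0.62 and -0.62 with p65 siRNA and -0.59, -0.28 and 0.02 with RPS3 siRNA. Probe 17160_1 was below 0 on all 6 arrays, between -0.54 and -0.09. Probe 35002_1 rose from -0.52 at 1 h to 0.63 at 6 h with RPS3 siRNA. Probe 35251_1 was low wherever it had a value, at -0.89, -1.21 and -0.64, and was blank on the other 3 arrays.

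**Figure D2:**
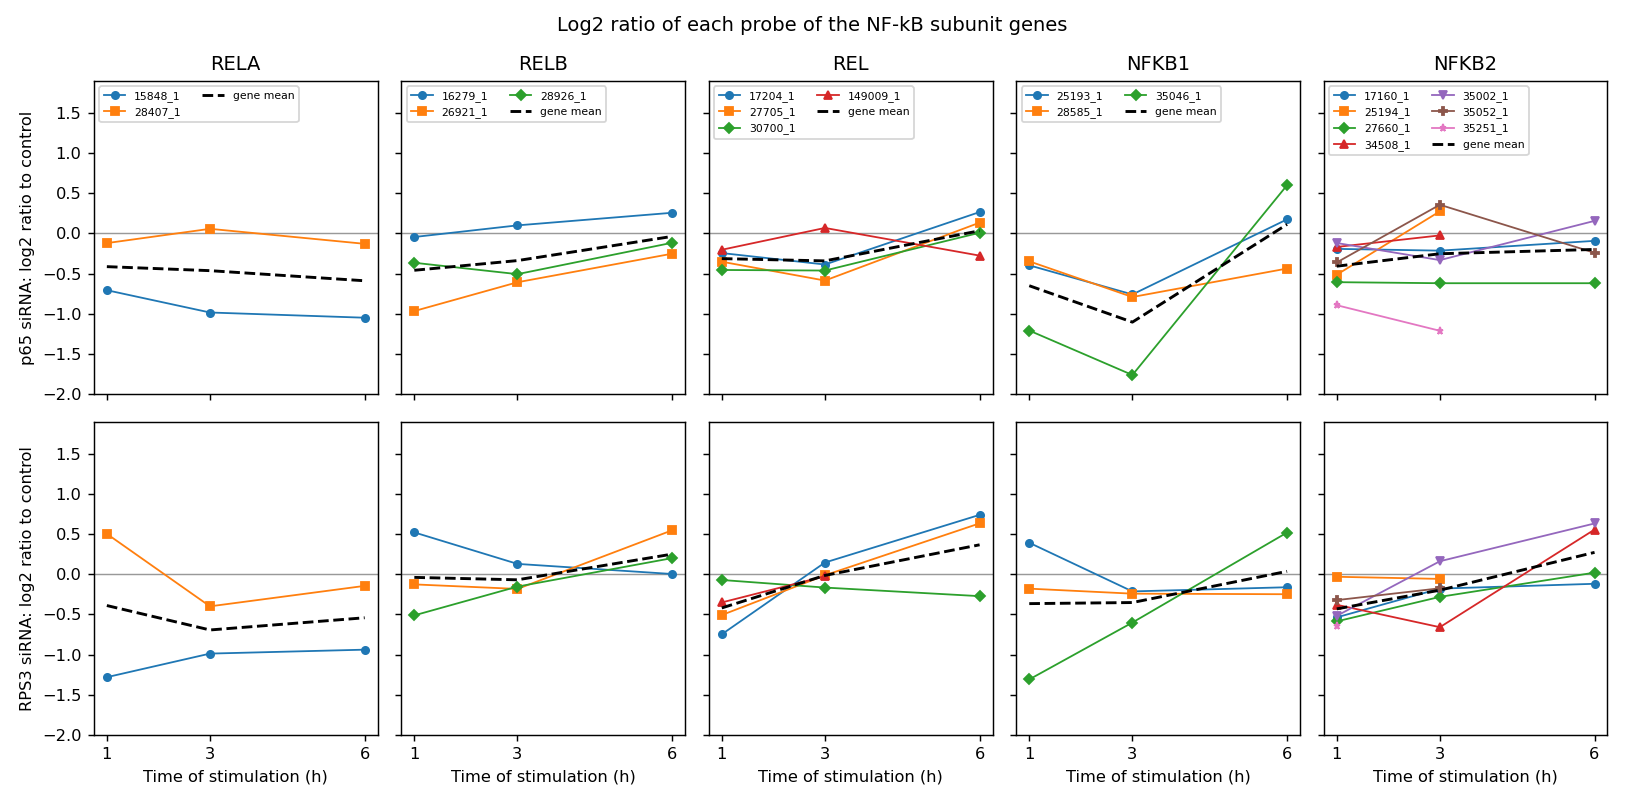
Log2 ratio to control (y axis) of each of the 19 probes against time of stimulation in hours (x axis), with p65 siRNA above and RPS3 siRNA below; colours and symbols are probes, a missing point is a blank, and the dashed line is the gene mean. RELA probe 15848_1 stays between -1.28 and -0.71, while NFKB1 probe 35046_1 runs from -1.76 to 0.60.

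In the RPS3 siRNA comparison the 5 gene means were also all below 0 at 1 and 3 h, as were 31.5% of features, and RELA alone was below 0 on all 3 arrays (15.5% of features). Unadjusted, only RELA was lower with a p under 0.05 (346 features or 4.76%) and 0 members were higher (290 or 3.99%). The means of all but RELB lay below 0 (47.1% of features), and 0 of the 5 passed after adjustment (limma, 0.00% called). The RPS3 probe, the check of this siRNA, read -2.50, -2.53 and -1.44 at 1, 3 and 6 h, so the labelled knockdown was visible on these arrays at a size that none of the subunit genes reached. Yet its mean of -2.16 did not pass after adjustment either (limma adjusted p = 0.0993). Failing to pass here therefore does not show that a gene was unchanged. For RPS3 siRNA minus p65 siRNA, 0 of the 5 passed (limma, 0.00% called), nor was any lower (117 features or 1.61%) or higher (68 or 0.936%) at an unadjusted p under 0.05. The differences other than those already given were 0.32 for NFKB1 (-0.37 to 1.01), 0.19 for REL (-0.34 to 0.71) and 0.17 for NFKB2 (-0.30 to 0.64). The NFKB1 difference was 0.04 without the p65 siRNA 3 h array, 0.65 without the p65 siRNA 6 h array and 0.19 without the RPS3 siRNA 6 h array, and those of REL and NFKB2 fell to -0.0091 and -0.0276 without the RPS3 siRNA 6 h array. The intervals all include 0. Those of RELB, REL, NFKB1 and NFKB2 reach beyond the size of their falls with p65 siRNA. That of RELA (-0.41 to 0.31) stays short of its falls of -0.49 and -0.54. The arrays of the siRNAs overlapped for all 5 genes (7.93% of features did not overlap).

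**Figure D3:**
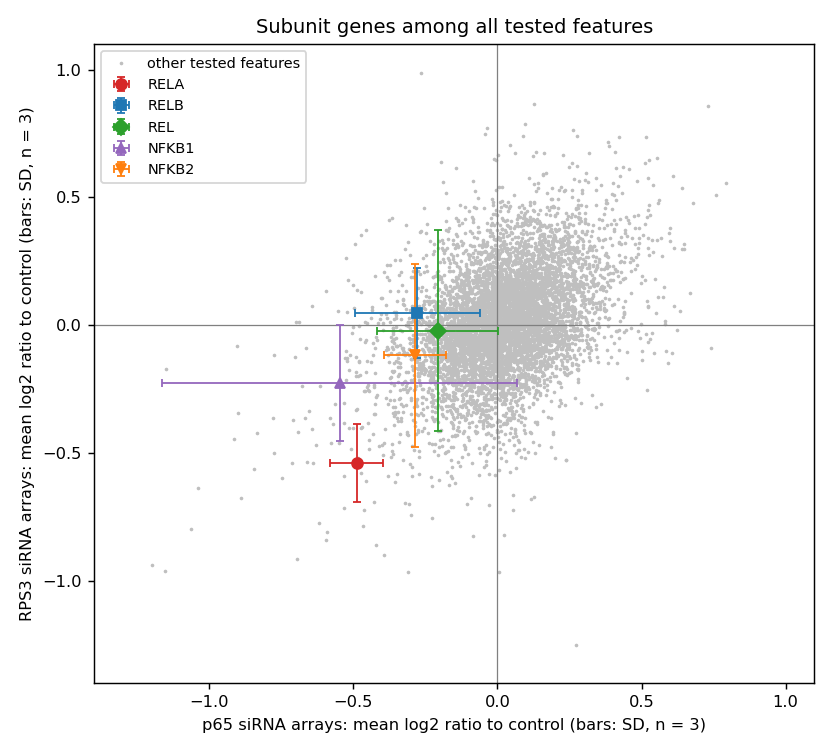
Mean log2 ratio on the p65 siRNA arrays (x axis) against that on the RPS3 siRNA arrays (y axis) for tested features, with bars of SD (n = 3) for the subunit genes; 5 features lie outside the axes. RELA lies low on both axes, at -0.49 and -0.54, while RELB, REL and NFKB2 are low on the p65 siRNA axis and near 0 on the other, and their bars overlap.

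Over time, the gene means of RELA and of the other 4 were not tested against each other. The 6 h value was the highest of the 3 times for RELB, REL, NFKB1 and NFKB2 with p65 siRNA (35.8% of features) and with RPS3 siRNA (39.4% of features), and for RELA with neither, although RELA probe 15848_1 alone was highest at 6 h with RPS3 siRNA. With p65 siRNA the 6 h value exceeded the mean of the 1 and 3 h values by 0.99 for NFKB1, 0.36 for RELB, 0.36 for REL and 0.13 for NFKB2, and with RPS3 siRNA by 0.40, 0.30, 0.58 and 0.59. For RELA these differences were -0.15 and -0.0003. The change per hour in log2 ratio, with both siRNAs in the fit, was 0.13 ± 0.06 (SE) for NFKB1, 0.11 ± 0.04 for REL, 0.09 ± 0.04 for NFKB2 and 0.07 ± 0.03 for RELB. RELA had a slope of -0.03 ± 0.03. None passed after adjustment (limma adjusted p = 0.131 for REL, 0.188 for NFKB2, 0.218 for RELB, 0.229 for NFKB1 and 0.621 for RELA; 0.00% of features called). In simulated data the slope test recovered 0% of features that changed by 1 log2 unit from 1 to 6 h. It was therefore too weak to decide on slopes of this size.

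Many features shared this pattern. Unadjusted, the slopes of REL and NFKB2 were positive with a p under 0.05, as were those of 14.2% of features (1032). At that p 0 members were negative (668 or 9.19%). Between 80.0% and 90.5% of features had a lower slope than each of RELB, REL, NFKB1 and NFKB2. With only probes complete on all 6 arrays, the NFKB2 slope was 0.0843 with an unadjusted limma p of 0.0625. That of REL was then 0.1326 with an unadjusted limma p of 0.0086. Without both 6 h arrays the slope of NFKB1 turned to -0.11, so its rise rested on 6 h. It also rested on 1 probe: without 35046_1 the NFKB1 slope was 0.0023. Among the 14 single probes, 6 had positive slopes with an unadjusted p under 0.05 (15.1% of probes), 0 had negative ones (10.1%), and none passed in limma (lowest adjusted p = 0.0675). The 6 h value was the highest for 10 of the 14 with p65 siRNA (35.4% of probes) and for 9 with RPS3 siRNA (39.4%). Within the ID block of 4 arrays, the 6 h p65 siRNA value was above the 3 h value by 1.22 for NFKB1, 0.38 for REL, 0.30 for RELB and 0.05 for NFKB2. With RPS3 siRNA in that block the 6 h value was above the 1 h value by 0.40, 0.79, 0.29 and 0.70 in the same order of genes. The block of 2 arrays held no siRNA at more than 1 time.

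Other features of the 6 h arrays moved with this pattern. Blanks made up 14.8% and 15.1% of the 6 h arrays and 5.40% to 10.1% of the others, and 16 and 15 of the 19 member probes had a value there against 18 or 19. Among T-cell markers, 11 of 12 tested were above 0 on each 6 h array (50.9% of features with p65 siRNA and 50% with RPS3 siRNA), and the sum of their log2 ratios was 3.65 and 6.23, against -1.26 to 1.02 on the other 4. Lists of B-cell, monocyte and granulocyte, erythroid, epithelial and fibroblast markers had medians between -0.46 and 0.09 on the 6 h arrays. The part of these in the subunit genes' time course was not tested. Transcript per cell and the share of cells that respond cannot be told apart in bulk RNA.

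**Figure D4:**
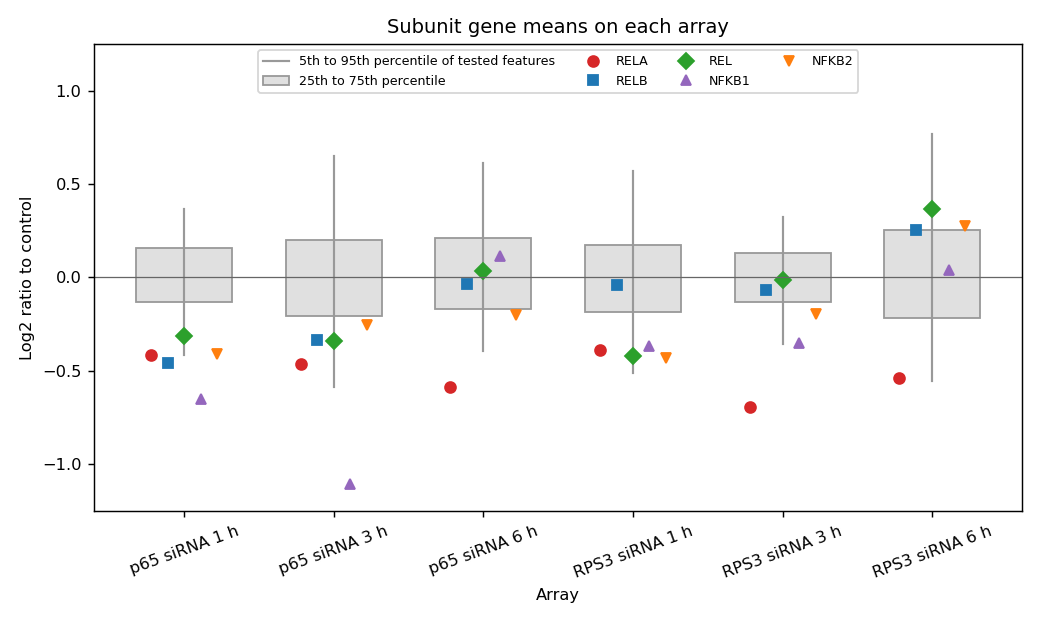
Log2 ratio to control (y axis) of the 5 subunit gene means on each array (x axis), over boxes of the 25th to 75th and lines of the 5th to 95th percentile of tested features. RELA stays between -0.69 and -0.39 on all arrays, while the other 4 lie below 0 at 1 and 3 h and reach between -0.20 and 0.37 at 6 h.

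**Figure D5:**
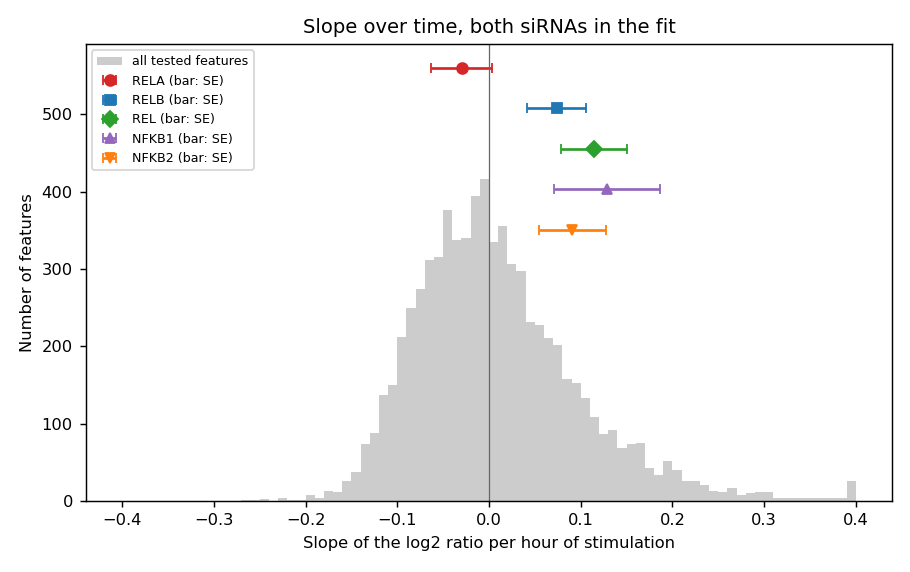
Change in log2 ratio for each hour of stimulation (x axis) for tested features (grey, number of features on the y axis; the end bin holds larger values) and for each subunit gene with its SE; the height of a symbol has no meaning. RELB, REL, NFKB1 and NFKB2 lie between 0.07 and 0.13 in the upper part of the distribution, and RELA at -0.03.

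Among themselves, REL and NFKB2 were the most alike over the 6 arrays, with a root mean square difference of 0.138, followed by REL and RELB (0.177) and RELB and NFKB2 (0.186). RELA differed from every other subunit gene by 0.430 or more, and NFKB1 by 0.383 or more. Over the same arrays the named genes nearest to RELA were MAP3K1 (0.187), CD83 (0.195) and ALDH9A1 (0.211). Their averages below 0 with both siRNAs follow from being picked as close to RELA. Nearest to NFKB1 were C21orf91 (0.0949), HEATR1 (0.130) and GNG2 (0.145). NFYA (0.0777), FBXO45 and BAG2 lay nearest to REL, L3MBTL1 (0.0936), CCDC18 and CORO1A to RELB, and DMPK (0.0974), CDC20B and PHC2 to NFKB2.

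The spread between probes of a gene was as large as the changes. The median over arrays of the SD between probes was 0.607 for RELA, 0.503 for NFKB1, 0.330 for RELB, 0.304 for NFKB2 and 0.258 for REL, against a median of 0.161 over 1917 genes with several complete probes. The SD of the gene mean over the 6 arrays was 0.116 for RELA, 0.451 for NFKB1, 0.252 for RELB, 0.254 for NFKB2 and 0.300 for REL. The SD between probes was the larger for RELA, NFKB1, RELB and NFKB2, and the SD over arrays for REL. These SDs are unlike, since the first is between single probes and the second is of a mean of probes.

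The rest of the NF-kB pathway was followed through 4 gene lists, in which 0 members passed in any comparison (limma, adjusted over all features). Of the IkB proteins and IkB kinases, 17 of 23 were tested. With p65 siRNA 12 lay below 0 (45.3% of all features) with a median of -0.10 (0.02 over all features), and 3 were lower with an unadjusted p under 0.05 (2.24% of features). With RPS3 siRNA 8 lay below 0 (47.1% of features) with a median of 0.004 (0.01 over all features), and 3 were lower (4.76%) and 1 higher (3.99%) at that p. TNFAIP3, the gene of the inhibitory protein A20, and NFKBIA, the gene of IkB-alpha, were the lowest: TNFAIP3 read -1.19, -1.34 and -0.59 with p65 siRNA and -0.99, -0.54 and -0.38 with RPS3 siRNA. NFKBIA read -0.99, -0.79 and -0.46, then -0.91, -0.51 and -0.37. Both were least far below control at 6 h with each siRNA, and neither reached 0. The highest means over the 6 arrays were those of TAB2 (0.17 ± 0.24) and the deubiquitinase gene CYLD (0.14 ± 0.39; SD, n = 6).

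Of NF-kB target genes, 63 of 78 were tested, and 41 lay below 0 with p65 siRNA (median -0.03; 45.3% of features) and 32 with RPS3 siRNA (median -0.01; 47.1%). At an unadjusted p under 0.05, 6 were lower and 1 higher with p65 siRNA (2.24% and 2.71% of features), and 8 were lower and 1 higher with RPS3 siRNA (4.76% and 3.99%). TNFAIP3 and NFKBIA were again the lowest, and the cytokine gene IL15 (0.35 ± 0.64) and the chemokine gene CXCL11 (0.33 ± 0.38) the highest over the 6 arrays. Target genes and the IkB list share TNFAIP3, NFKBIA and other genes, so their counts are not separate. For the route from the T-cell receptor to NF-kB, 19 of 24 were tested, and 13 lay below 0 with p65 siRNA (45.3% of features) and 7 with RPS3 siRNA (47.1%). The median was -0.03 and 0.08. Its lowest means were PIK3R1 (-0.35 ± 0.30) and TRAF3 (-0.18 ± 0.23), and its highest LCK (0.26 ± 0.39), the kinase that starts receptor signalling, and the adaptor LAT (0.19 ± 0.26). Of its slopes, 7 were positive with an unadjusted p under 0.05 (14.2% of features) and 0 negative (9.19%). This list shares LCK, LAT and other receptor genes with the T-cell markers. At that p, the target genes had 4 positive and 5 negative slopes among 63. The IkB list had 2 positive and 0 negative among 17, and the p65 cofactors and modifiers 4 positive and 0 negative among 20. Of p65 cofactors and modifiers, 20 of 30 were tested, with 9 below 0 with p65 siRNA (45.3% of features) and 7 with RPS3 siRNA (47.1%), and medians of 0.02 in both. Over the 6 arrays the acetyltransferase gene KAT2B (-0.19 ± 0.30) and RPS3 were lowest. RPS3 averaged -2.16 on the arrays of its own siRNA, and with p65 siRNA it read 0.11, 0.01 and 1.11. In that list PRKCZ (0.25 ± 0.30) and the deacetylase gene HDAC1 (0.22 ± 0.19) were highest.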

How the data were processed

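Values were the log ratios deposited by the authors for 6 arrays, read as log2 because they reach 9.52; the log base, image analysis, background correction, rule for blanks and normalization are not given in the sources used here. Each array was centred on its median (deposited medians -0.0185 to 0.007). Spread differed by ID block: p65 siRNA 1 h and RPS3 siRNA 3 h reached only 1.124 and 1.566. The SD of their tested features was 0.242 and 0.218, against 0.329 to 0.415 on the other arrays. Comparisons between times thus mix arrays of unlike spread. Probes with 1 symbol in the platform annotation (10169) were averaged per gene on each array, the others stayed single, and complete features entered limma 3.58.1 in R 4.3.3 (lmFit, eBayes, Benjamini-Hochberg), which was tested on simulated data. With a simulated log2 change of 1, it recovered 77% of changed features for p65 siRNA and 75% for RPS3 siRNA. For their difference it recovered 51%, and for the slope (change from 1 to 6 h) 0%. With a change of 2 these shares were 98%, 99.5%, 93.5% and 83.5%. The simulated noise was independent between arrays, and many features were given the same change. Deviations of the real 6 h arrays correlated at 0.756, and RPS3 at -2.16 did not pass. The recovered shares may therefore be too high for these arrays. Testing a ratio against 0 omits variation among controls and keeps any dye effect, as no dyes were swapped. Precision is limited by the 6 arrays, and channel intensities were not used here.

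Members and lists were chosen with earlier results of these data known. Named genes were all members, RPS3, the 3 named genes nearest to each subunit by root mean square difference, and the 2 lowest and 2 highest of each list; TOPBP1 and HMGN1 were named after their values were seen. Alternatives covered probe averaging, normalization, array weights, the block of ID numbers, blanks, a time block and arrays left out. RELB had no entry in the promoter table.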

Additional observations from a re-analysis of the deposited data

How the results depend on the processing

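Of the 5 subunit genes 0 passed in any comparison, and this held under every alternative with these exceptions. With array weights 1 (RELA) passed for RPS3 siRNA (limma adjusted p = 0.0234), where 149 of 7267 features were called. RELA also passed over all 6 arrays with those weights (0.0420), where 18 features were called. In the main fit 0 features were called in either comparison. With probe 15848_1 in place of its mean, RELA passed over all 6 arrays (-0.99, adjusted p = 0.0213, 1 feature called). When probes were tested alone, 1 member probe, 15848_1, passed for RPS3 siRNA and over all 6 arrays (7 and 20 of 10721 probes called). Leaving out 1 array gave 0 in all 5 comparisons. Some values turned sign, none of which had passed. RELB with RPS3 siRNA became -0.0255 with the median of probes, -0.0354 with array weights and -0.0533 without both 6 h arrays (-0.0533 to 0.11 with 1 array left out), and REL became 0.0627 with the median of probes (-0.22 to 0.18). NFKB2 with RPS3 siRNA ran from -0.31 to 0.038. The differences between siRNAs ran from -0.13 to 0.0236 for RELA (0.0508 with probe 28407_1 alone), -0.0091 to 0.38 for REL and -0.0276 to 0.32 for NFKB2. The slope of NFKB1 became -0.11 without both 6 h arrays. The causes were not tested.

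With the time point as a replicate block 0 subunit genes passed. Deviations of same-time arrays correlated at 0.01 (1 h), 0.0961 (3 h) and 0.756 (6 h) across features. Those of p65 siRNA 1 h and RPS3 siRNA 3 h, which share an ID block, correlated at 0.574. Those of p65 siRNA 3 h and RPS3 siRNA 1 h, in the other block, correlated at 0.536. Arrays of the same time thus went together at 6 h and not at 1 or 3 h. Each RELA probe in place of the gene mean, NFKB1 without probe 35046_1, and single probes combined with other settings were chosen after seeing the data. Single probes give no gene value and are described one by one.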
